A study of Mus musculus with 55 samples.

Results

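The genes described here are 39 genes linked to the response that cells mount when amino acids run short. The set holds Atf4, which encodes the transcription factor ATF4, and listed ATF4 targets. It also holds one-carbon and serine synthesis genes and aminoacyl-tRNA synthetases. They were chosen by name: 9 act in transcription and stress signalling, 3 in translation control and growth signalling, 6 in amino acid synthesis and handling, 7 in serine synthesis and one-carbon metabolism, 3 are secreted or sit at the cell surface, and 11 are aminoacyl-tRNA synthetases. All 39 were among the 24475 gene rows of a liver count table, and 36 of them were among the 13311 genes that passed a filter on low counts and could be tested. Phgdh, Pycr1 and Stc2 did not pass it.

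ATF4 is a protein whose messenger RNA is held back from full translation in unstressed cells. When uncharged transfer RNAs, misfolded protein in the endoplasmic reticulum, haem shortage or viral RNA activate kinases of the translation factor eIF2, general translation falls and ATF4 protein is made. ATF4 pairs with C/EBP proteins on DNA and induces genes for amino acid synthesis, amino acid uptake and tRNA charging, and also CHOP (gene Ddit3), ATF3 and TRIB3, which adjust or end the response. Because ATF4 is set mainly at translation, the amount of Atf4 messenger RNA need not follow the activity of its protein.

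Messenger RNA was sequenced with strand-specific libraries from the livers of 55 male mice of 2 strains. OTC mice were B6EiC3Sn a/A-Otcspf-ash/J, whose Otcspf-ash allele lowers the urea cycle enzyme ornithine transcarbamylase and with it the clearance of ammonia, and WT mice were B6EiC3SnF1/J. Each mouse was injected by vein at 4 months of age with an adeno-associated virus that encoded a hairpin RNA against Gls2 (sh-Gls2), a hairpin against Glud1 (sh-Glud1) or a scrambled hairpin (control). All groups therefore carried a virus, all moved from chow to a diet of 40% protein in week 2, and all livers were collected in week 5, at 5 months of age. The libraries came from 10 OTC sh-Gls2, 8 OTC sh-Glud1, 8 OTC control, 10 WT sh-Gls2, 9 WT sh-Glud1 and 10 WT control mice. The strains may differ in genes other than Otc, so a difference between them cannot be told apart from one of background, and no group without virus, without the high-protein diet or with another hairpin against the same gene was among the samples. Gls2 encodes the liver glutaminase, which releases ammonia from glutamine, and Glud1 encodes glutamate dehydrogenase, which releases ammonia from glutamate.

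Total counts per library lay between 14489866 and 22781052. The targeted genes followed the labels. Median Gls2 was 201 CPM (read counts relative to the library's TMM-scaled total) in OTC sh-Gls2 and 449 CPM in OTC control livers, and 198 CPM in WT sh-Gls2 and 438 CPM in WT control. Median Glud1 was 456 CPM in OTC sh-Glud1 and 1058 CPM in OTC control livers, and 374 CPM in WT sh-Glud1 and 1020 CPM in WT control. Otc lay between 43.02 and 87.2 CPM in the 26 OTC livers and between 473 and 596 CPM in the 29 WT livers, and the summed level of 5 hepatocyte markers was 66760.0 CPM or more in every liver. A few libraries stood apart within their groups for these genes. The WT control library of mouse 7 was the highest of its group for 14 of the 36 tested members and the lowest for 5, the OTC sh-Glud1 library of mouse 65 was the highest for 7 and the lowest for 13, the OTC control libraries of mice 3 and 67 were far from the other 6 for Eif4ebp3 and Gpt, and the WT control library of mouse 13 was far from the others for Vldlr.

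The sequence that ATF4 and its C/EBP partners recognise together, the C/EBP-ATF response element, has the core TGATGNAA. This core was searched on both strands of RefSeq promoters of the GRCm38.p6 build, each reaching from 250 bases before to 50 bases after an annotated start. Of the 39 members, 31 had a promoter entry and 13 of these (41.9%) held the core, against 1219 of 27025 genes (4.51%). The 13 were Atf3, Trib3, Nupr1, Asns, Chac1, Pycr1, Pck2, Vldlr, Aars, Gars, Iars, Tars and Yars. The share describes a set of genes chosen partly because ATF4 is known to act on them. The cyclic AMP response element TGACGTCA was found in 1 of the 31 members (Ppp1r15a) and in 2.03% of genes, and the AP-1 site TGANTCA in 1 member (Ddit3) and in 8.97% of genes. The stretches below are shown because their genes moved differently although all hold the core, which is in capitals. Atf3 and Aars rose under sh-Gls2, Vldlr fell and Asns was not called. Each of these is the 250 bases before a start, read 5′ to 3′ along the gene's strand. Where the core lies on the opposite strand, the capitals show its reverse complement. The Trib3 stretch is 30 bases around a core that begins 14 bases past the start. Vldlr has another promoter entry (chr19:27216234-27216533) that does not hold the core. Aars also has a core that begins 9 bases past the start, outside the stretch shown.
Atf3 (chr1:191183334-191183583, minus strand, core 110 bases before the start): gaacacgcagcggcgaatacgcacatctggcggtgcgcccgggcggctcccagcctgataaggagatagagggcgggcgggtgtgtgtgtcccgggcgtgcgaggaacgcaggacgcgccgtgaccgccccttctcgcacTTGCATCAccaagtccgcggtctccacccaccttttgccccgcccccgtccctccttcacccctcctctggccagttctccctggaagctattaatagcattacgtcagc
Aars (chr8:111033592-111033841, plus strand, core 112 bases before the start): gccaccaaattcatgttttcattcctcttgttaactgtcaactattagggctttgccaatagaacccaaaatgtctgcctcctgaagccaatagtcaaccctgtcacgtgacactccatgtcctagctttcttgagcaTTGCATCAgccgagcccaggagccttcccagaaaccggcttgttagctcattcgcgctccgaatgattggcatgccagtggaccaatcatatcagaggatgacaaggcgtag
Vldlr (chr19:27216770-27217019, plus strand, core 200 bases before the start): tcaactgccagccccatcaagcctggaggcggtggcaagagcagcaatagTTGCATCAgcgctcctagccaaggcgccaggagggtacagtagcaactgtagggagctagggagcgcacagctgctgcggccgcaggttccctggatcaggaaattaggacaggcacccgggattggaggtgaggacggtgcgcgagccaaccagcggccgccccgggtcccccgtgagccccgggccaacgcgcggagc
Asns (chr6:7693210-7693459, minus strand, core 23 bases before the start): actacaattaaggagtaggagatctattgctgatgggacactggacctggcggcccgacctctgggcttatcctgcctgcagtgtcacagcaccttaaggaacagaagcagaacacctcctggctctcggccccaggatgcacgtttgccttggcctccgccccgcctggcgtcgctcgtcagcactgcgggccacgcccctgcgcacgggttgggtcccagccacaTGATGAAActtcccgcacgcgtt
Trib3 (chr2:152344028-152344057, minus strand): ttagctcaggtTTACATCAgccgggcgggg

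On the TPM scale, which corrects for transcript length, the members spanned a wide range in WT control livers. Atf5, a relative of ATF4, was the most abundant member with a median of 278 TPM, followed by the alanine aminotransferase Gpt at 215 TPM and the mitochondrial serine hydroxymethyltransferase Shmt2 at 134 TPM. Atf4 came next at 107 TPM. The synthetases lay between 10.54 TPM (Wars) and 106 TPM (Tars). Many classical ATF4 targets were scarce: Trib3 had 2.35 TPM, Asns 1.27 TPM, Chac1 1.21 TPM and Atf3 0.49 TPM. Asns makes asparagine and Chac1 degrades glutathione. Of the enzymes that make serine in sequence, Phgdh had 0.06 TPM, Psat1 0.34 TPM and Psph 3.94 TPM.

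Under sh-Gls2 members were called in both directions, as were genes in general. In OTC mice 11 members were higher and 6 lower under sh-Gls2 than under control, which is 47.2% of 36, where 42.7% of all genes tested were called (20.2% higher and 22.6% lower). In WT mice 12 were higher and 5 lower, also 47.2%, where 34.8% of all genes were called (17.6% higher and 17.2% lower). The sh-Gls2 livers did not overlap with the control livers for 2 members in OTC mice, Atf3 higher and Vldlr lower, where 6.74% of all genes did not overlap (3.59% higher and 3.15% lower). In WT mice there were 4, Atf3, Gdf15, Mthfd1l and Ppp1r15a, all higher, where 4.76% of all genes did not overlap (2.88% higher and 1.88% lower). With limma on log2(TPM + 1), where 31 members were tested, 12 were higher and 3 lower in OTC mice and 10 higher and 2 lower in WT mice. Here and below, counts from limma or from fits without some livers come without the share of all genes called. They serve only to compare with the edgeR counts over all libraries. The median log2 fold change of the members was 0.07 in OTC and 0.13 in WT mice, against -0.02 and -0.01 for all genes. A gene was called when its p from edgeR's quasi-likelihood test, adjusted over all genes tested, was below 0.05, and every adjusted p of a fold change given here is from that test. Of the members called, 9 were higher in both strains (Aars, Atf3, Ddit3, Gars, Gdf15, Mthfd1l, Nars, Ppp1r15a and Trib3) and 4 lower in both (Aldh1l2, Atf5, Mars and Vldlr). These are 25% and 11.1% of the 36, where 13.1% of all genes were higher and 12.5% lower in both strains. Of the 4 lower members, Aldh1l2 rests on few counts, given below. The sign of the fold change was shared by 32 members (88.9%) and by 81.1% of all genes. No member was called in opposite directions. Among the 12 tested members with the TGATGNAA core, 4 were higher, 1 lower and 7 not called in OTC mice, and 5 were higher, 2 lower and 5 not called in WT mice.

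**Figure D1:**
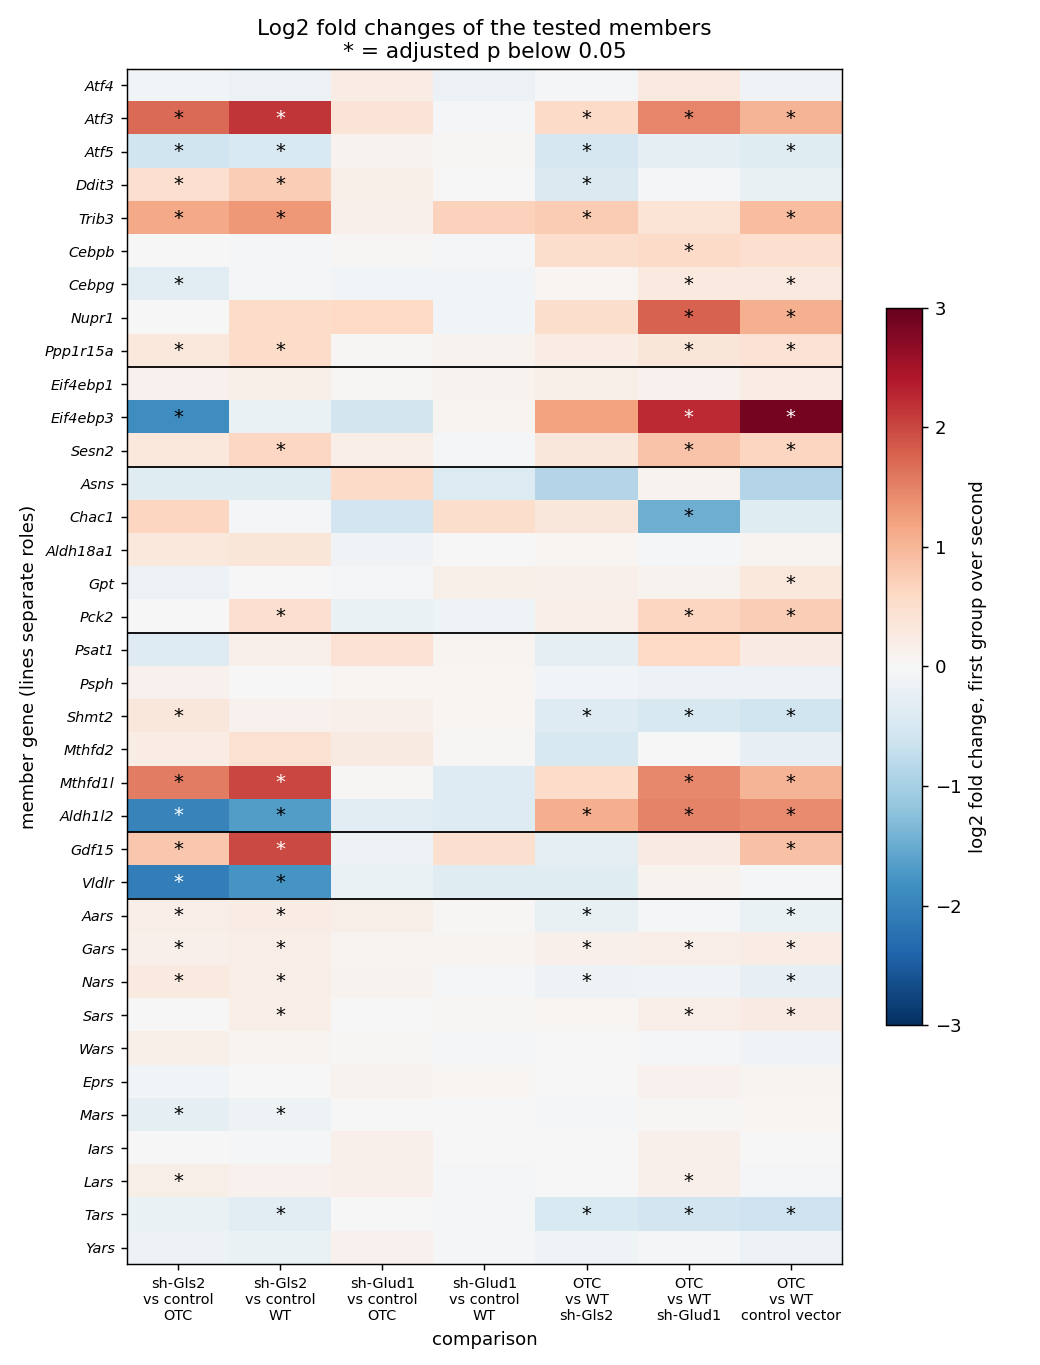
Log2 fold change (colour, first group over second) of the 36 tested members, in rows grouped by role, for 7 comparisons in columns. A star marks a gene called at an adjusted p below 0.05. The columns of sh-Gls2 over control hold 17 starred members each, in both colours, and those of sh-Glud1 over control hold none.

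Among the transcription factors, Atf3 moved most. Atf3 is a stress-induced factor of the same family that mostly represses transcription. It had 3.53 to 7.46 CPM in OTC sh-Gls2 livers with a median of 4.35, against 0.52 to 2.18 CPM with a median of 1.25 in OTC control. In WT sh-Gls2 livers it had 1.94 to 4.25 CPM with a median of 3.03, against 0.47 to 1.12 CPM with a median of 0.62 in WT control. All sh-Gls2 livers were above all control livers of their strain. It rose by 1.70 ± 0.21 (log2 fold change and SE) in OTC mice (adjusted p = 4.26e-09 in edgeR) and by 2.15 ± 0.21 in WT mice (adjusted p = 7.92e-12 in edgeR). The gene lies on chromosome 1 from 191170296 to 191218039 (GRCm38, minus strand).

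Trib3 encodes a pseudokinase that binds ATF4 and restrains it. Its level was 7.88 to 30.9 CPM in OTC sh-Gls2 livers, with a median of 21.1, and 6.13 to 13.0 CPM in OTC control, with a median of 8.08. WT sh-Gls2 livers had 4.42 to 23.9 CPM with a median of 9.88, and WT control livers 1.75 to 13.6 CPM with a median of 3.16. The ranges overlapped in both strains. In OTC mice 9 of the 10 sh-Gls2 livers were above every control liver, and in WT mice all 10 were above the control median. Log2 fold changes were 1.15 ± 0.32 in OTC (adjusted p = 0.00308 in edgeR) and 1.30 ± 0.31 in WT mice (adjusted p = 0.000851 in edgeR).

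Ddit3, which encodes the stress factor CHOP, and Ppp1r15a, which encodes the phosphatase subunit GADD34 that restores translation, rose by less. Ddit3 had 3.70, 5.51 and 7.10 CPM (lowest, median and highest) in OTC sh-Gls2 livers and 2.51, 3.71 and 5.59 CPM in OTC control livers, and 6.03, 7.32 and 9.02 CPM in WT sh-Gls2 and 2.93, 4.00 and 7.13 CPM in WT control. These ranges overlapped, with a log2 fold change of 0.51 ± 0.18 in OTC and 0.73 ± 0.16 in WT mice. Leaving out OTC control mice 3 and 67 lowered the OTC value to 0.37, which was not called (adjusted p = 0.112 in edgeR). Ddit3 overlaps the end of the synthetase gene Mars on the opposite strand. The libraries keep the strand, but whether the counting used it was not given in the sources used here. The same limit holds for other members that genes on the opposite strand overlap, among them Atf3, Atf5, Shmt2, Psph and Aldh1l2. Ppp1r15a had 10.8, 14.2 and 17.3 CPM in OTC sh-Gls2 and 8.52, 11.8 and 13.0 CPM in OTC control livers, and 9.65, 12.1 and 15.7 CPM in WT sh-Gls2 and 7.47, 8.46 and 9.05 CPM in WT control. In WT mice its groups did not overlap, and the log2 fold change was 0.33 ± 0.10 in OTC and 0.56 ± 0.09 in WT mice.

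Atf5, which like Atf4 is held back in translation and is induced by amino acid shortage, went the other way. It had 133, 168 and 179 CPM in OTC sh-Gls2 and 141, 245 and 338 CPM in OTC control livers, and 186, 220.2 and 293 CPM in WT sh-Gls2 and 263, 305 and 388 CPM in WT control. Every sh-Gls2 liver was below the median of its control group, although ranges overlapped. Atf5 had log2 fold changes of -0.59 ± 0.12 in OTC (adjusted p = 0.000103 in edgeR) and of -0.45 ± 0.12 in WT mice (adjusted p = 0.0019 in edgeR). Cebpg, a partner of ATF4 on DNA, was lower in OTC sh-Gls2 livers than in OTC control (log2 fold change -0.31 ± 0.06), with medians of 57.99 and 68.8 CPM. In WT mice it had -0.06, which was not called. Gm44836 and Gm45094 overlap Cebpg on the same strand, so its reads may be shared. The same holds for Mthfd1l, Sesn2, Aars, Mthfd2, Wars, Iars and Aldh18a1, which other annotated genes also overlap on the same strand.

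**Figure D2:**
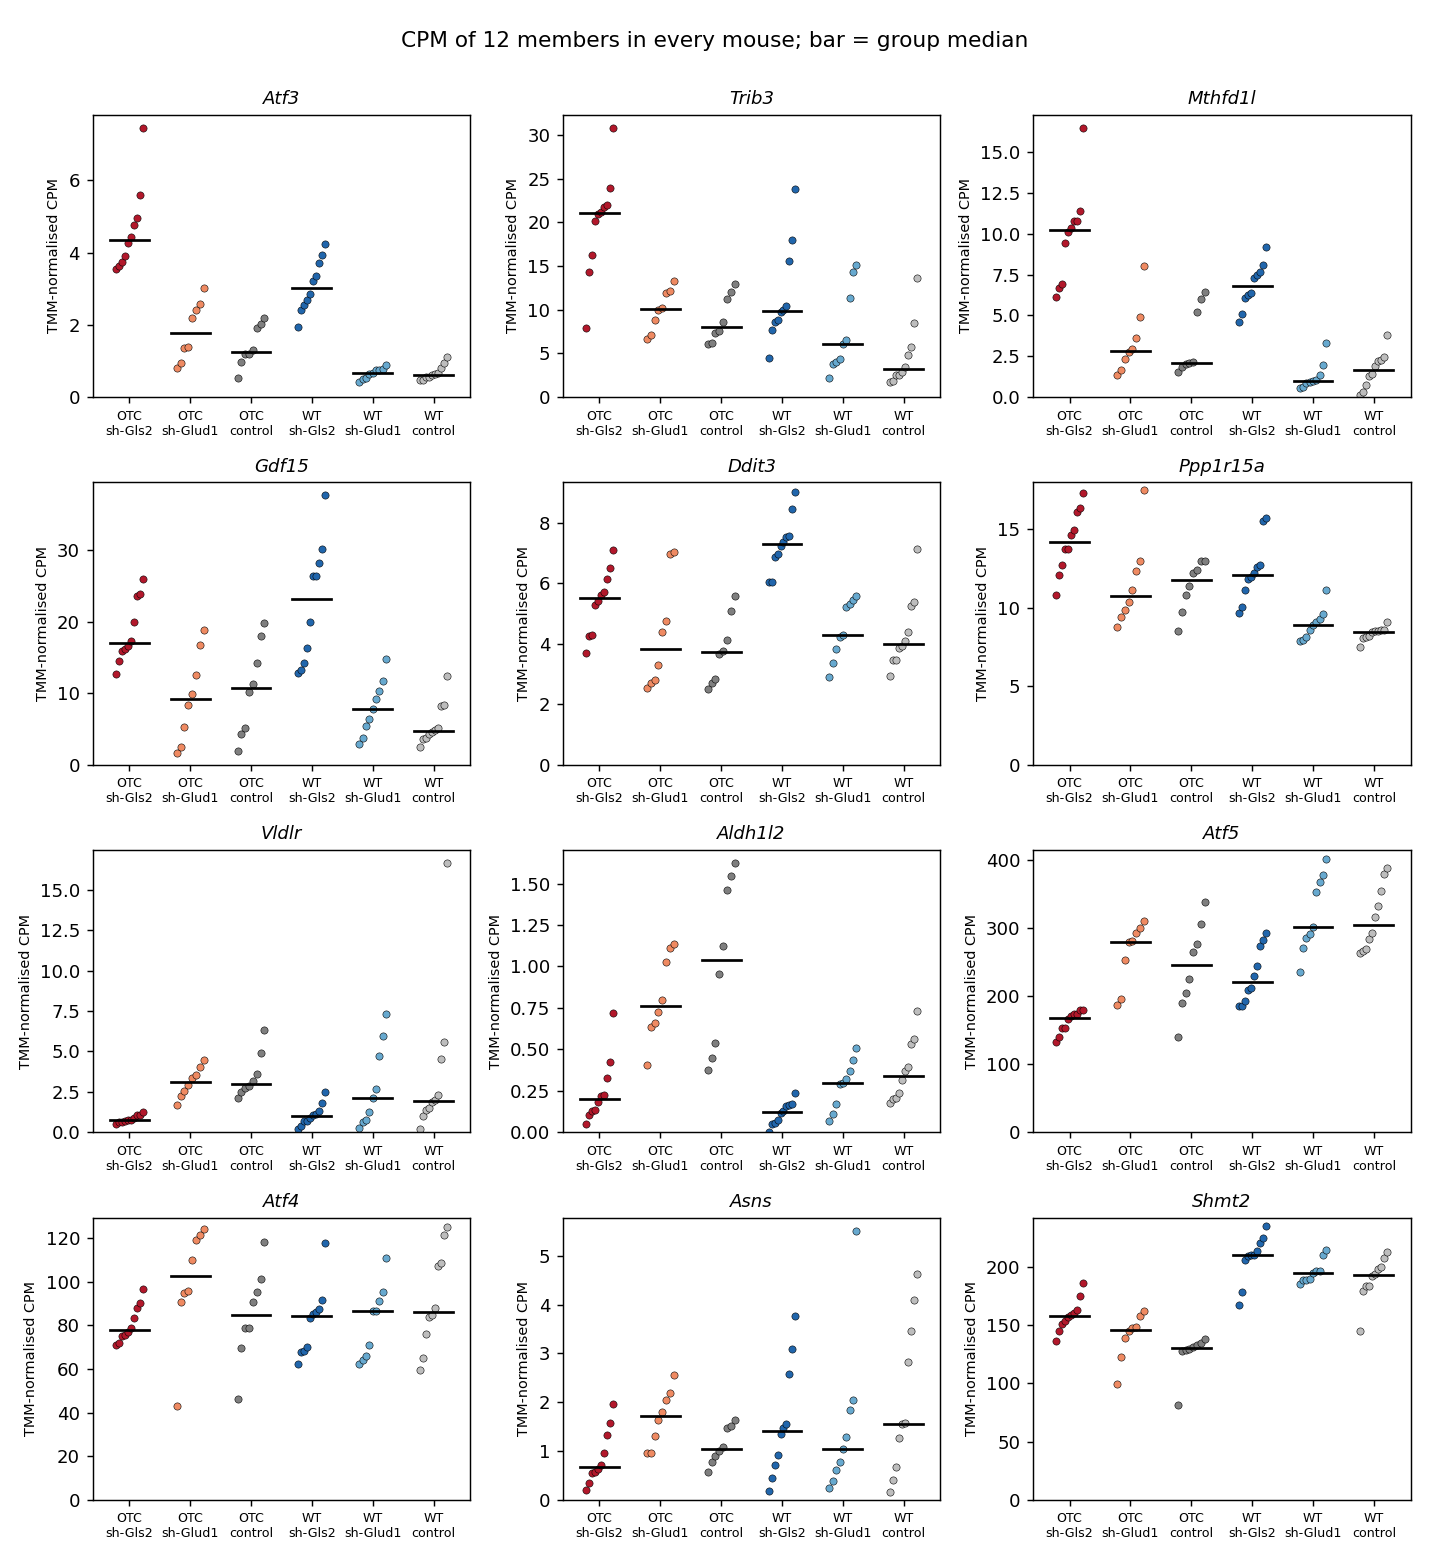
TMM-normalised CPM (vertical axis, linear from 0) of 12 members in each of the 55 livers, by group along the horizontal axis, with a bar at each group's median. Atf3 in the sh-Gls2 livers lies above every control liver of the same strain, Aldh1l2 and Vldlr lie low there, and Atf4 and Asns overlap in all groups.

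Atf4 messenger RNA was not called under either hairpin. It had 71.03, 77.8 and 96.6 CPM in OTC sh-Gls2, 43.3, 102.8 and 124 CPM in OTC sh-Glud1 and 46.4, 85.0 and 118 CPM in OTC control. WT sh-Gls2 livers had 62.4, 84.5 and 118 CPM, WT sh-Glud1 livers 62.4, 86.7 and 111 CPM and WT control livers 59.5, 86.4 and 125 CPM. All 6 groups overlapped. The log2 fold change of sh-Gls2 over control was -0.07 in OTC (95% interval -0.37 to 0.22) and -0.17 in WT mice (-0.45 to 0.11). The levels are those of the messenger RNA, and ATF4 protein was not measured here.

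Asns, whose promoter is a standard reporter of ATF4 activity, was likewise not called. Its level ran from 0.20 to 1.955 CPM in OTC sh-Gls2 (median 0.67), from 0.57 to 1.64 CPM in OTC control (median 1.04), from 0.17 to 3.77 CPM in WT sh-Gls2 (median 1.41) and from 0.17 to 4.63 CPM in WT control (median 1.56). Levels varied widely within the WT groups and the intervals were wide. The Asns log2 fold change was -0.37 in OTC (95% interval -1.34 to 0.60) and -0.37 in WT mice (-1.22 to 0.47). Chac1 had 0.66, 1.78 and 3.59 CPM in OTC sh-Gls2 and 0.25, 0.75 and 4.16 CPM in OTC control, and a log2 fold change of 0.65 that was not called. The highest OTC control value was that of mouse 3. Without that library the change was 1.33 and called (adjusted p = 0.0118 in edgeR), and in WT mice it was -0.05. Pck2, the mitochondrial enzyme that makes phosphoenolpyruvate, was higher in WT mice under sh-Gls2 (medians of 1.58 and 1.22 CPM, log2 fold change 0.51 ± 0.17), a call that was lost without WT sh-Gls2 mouse 8 (0.42, adjusted p = 0.0582 in edgeR). In OTC mice its medians were 1.86 and 1.83 CPM. Sesn2, which signals leucine shortage to the growth kinase mTORC1, was higher in WT mice, with 5.86, 7.22 and 8.02 CPM in sh-Gls2 livers and 3.08, 4.69 and 5.88 CPM in control livers (log2 fold change 0.62 ± 0.16). In OTC mice it had 0.33 (not called), and 0.41 and 0.43 (both called) without OTC control mouse 67 or mouse 3.

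In mitochondrial one-carbon metabolism, where the one-carbon unit of serine is carried by folate and released as formate, Mthfd1l was called higher and Aldh1l2 lower in both strains. Mthfd1l makes formate from 10-formyl-tetrahydrofolate. It had 6.13, 10.2 and 16.5 CPM in OTC sh-Gls2 and 1.55, 2.11 and 6.45 CPM in OTC control livers, and 4.62, 6.83 and 9.16 CPM in WT sh-Gls2 and 0.13, 1.68 and 3.81 CPM in WT control. The WT groups did not overlap, and in OTC mice 1 sh-Gls2 liver lay just below the highest control liver. Aldh1l2 oxidises the same folate to carbon dioxide. It had 0.05, 0.20 and 0.72 CPM in OTC sh-Gls2 and 0.38, 1.04 and 1.62 CPM in OTC control livers, and 0.00, 0.12 and 0.23 CPM in WT sh-Gls2 and 0.18, 0.34 and 0.73 CPM in WT control. Every sh-Gls2 liver was below the median of its control group. These are few counts: Aldh1l2 had 1 to 14 per library in OTC sh-Gls2 and 6 to 33 in OTC control, and 0 to 4 in WT sh-Gls2 and 3 to 15 in WT control. At least 10 counts were reached in 6 of 8 OTC control and 7 of 8 OTC sh-Glud1 livers and in 3 of the other 39, so Aldh1l2 passed the filter mainly through the groups where it is high. For Mthfd1l the log2 fold change was 1.54 ± 0.33 in OTC (adjusted p = 0.000175 in edgeR) and 2.01 ± 0.33 in WT mice (adjusted p = 2.51e-06 in edgeR). That of Aldh1l2 was -1.996 ± 0.33 in OTC (adjusted p = 2.93e-06 in edgeR) and -1.67 ± 0.41 in WT mice (adjusted p = 0.00114 in edgeR). Because of how the gene passed the filter, these tests of Aldh1l2 are not support of their own for a fall. Mthfd1l lies on chromosome 10 from 3973118 to 4167081 (plus strand) and Aldh1l2 on chromosome 10 from 83487450 to 83534140 (minus strand).

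Among the enzymes that feed this pathway, 1 was called, in OTC mice. Shmt2, which moves the carbon of serine onto folate, had 137, 158 and 186 CPM in OTC sh-Gls2 and 81.8, 130.4 and 138 CPM in OTC control (log2 fold change 0.34 ± 0.08, adjusted p = 0.000394 in edgeR), and in WT mice its medians were 211 and 194 CPM and it was not called. Mthfd2, the dehydrogenase between Shmt2 and Mthfd1l, was not called in either strain. The WT control library of mouse 7 had 4.07 CPM of Mthfd2, where the other 9 had at most 1.93, and without it the WT log2 fold change was 0.82 (adjusted p = 0.00746 in edgeR). Psat1 and Psph were not called.

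Phgdh, the first enzyme of serine synthesis, had too few counts for the test. It had 1 to 7 counts per library in OTC sh-Gls2, 2 to 6 in OTC sh-Glud1, 3 to 17 in OTC control, 0 to 5 in WT sh-Gls2, 0 to 3 in WT sh-Glud1 and 0 to 3 in WT control. When no filter was applied and 19700 genes were tested, Phgdh was higher in OTC than in WT mice under the control vector (log2 fold change 2.31, adjusted p = 9.05e-05 in edgeR) and under sh-Glud1 (1.81, adjusted p = 0.0044 in edgeR). Under sh-Gls2 it was not called (0.49, adjusted p = 0.459 in edgeR). The unnumbered OTC control liver and that of mouse 38 had 0.71 and 0.89 CPM, and the other OTC control livers at most 0.39 CPM. As Phgdh failed the filter, these values are not support of their own for a strain difference. Pycr1 and Stc2 had 0 to 5 counts per library and were not called in the fit without a filter.

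Gdf15, a secreted stress hormone that acts on the brain stem to lower food intake, rose in WT mice. It had 12.8, 23.1 and 37.7 CPM in WT sh-Gls2 and 2.44, 4.66 and 12.4 CPM in WT control, which did not overlap (log2 fold change 1.97 ± 0.34, adjusted p = 6.21e-06 in edgeR). OTC sh-Gls2 livers had 12.7, 16.99 and 25.97 CPM and OTC control livers 1.87, 10.7 and 19.9 CPM. The OTC ranges overlapped and the OTC log2 fold change of 0.82 ± 0.34 lay at the threshold (adjusted p = 0.0499 in edgeR). It missed the threshold without any one of 13 of the 18 OTC libraries, with values of 0.66 to 0.84 and adjusted p of 0.0507 to 0.112. These were OTC control mice 3, 38, 46, 67 and 72 and OTC sh-Gls2 mice 4, 24, 31, 39, 49, 50, 73 and 74.

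Vldlr, a receptor that takes up triglyceride-rich lipoproteins and is known to be induced through ATF4 in mouse liver, fell under sh-Gls2. Livers of OTC sh-Gls2 mice had 0.51, 0.75 and 1.26 CPM and those of OTC control mice 2.13, 3.02 and 6.33 CPM, without overlap. WT sh-Gls2 livers had 0.19, 0.98 and 2.48 CPM and WT control livers 0.19, 1.92 and 16.6 CPM. Vldlr had log2 fold changes of -2.08 ± 0.49 in OTC (adjusted p = 0.000498 in edgeR) and of -1.77 ± 0.46 in WT mice (adjusted p = 0.00202 in edgeR). The WT value was -1.07 (adjusted p = 0.0374 in edgeR) without WT control mouse 13, the liver with 16.6 CPM.

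**Figure D3:**
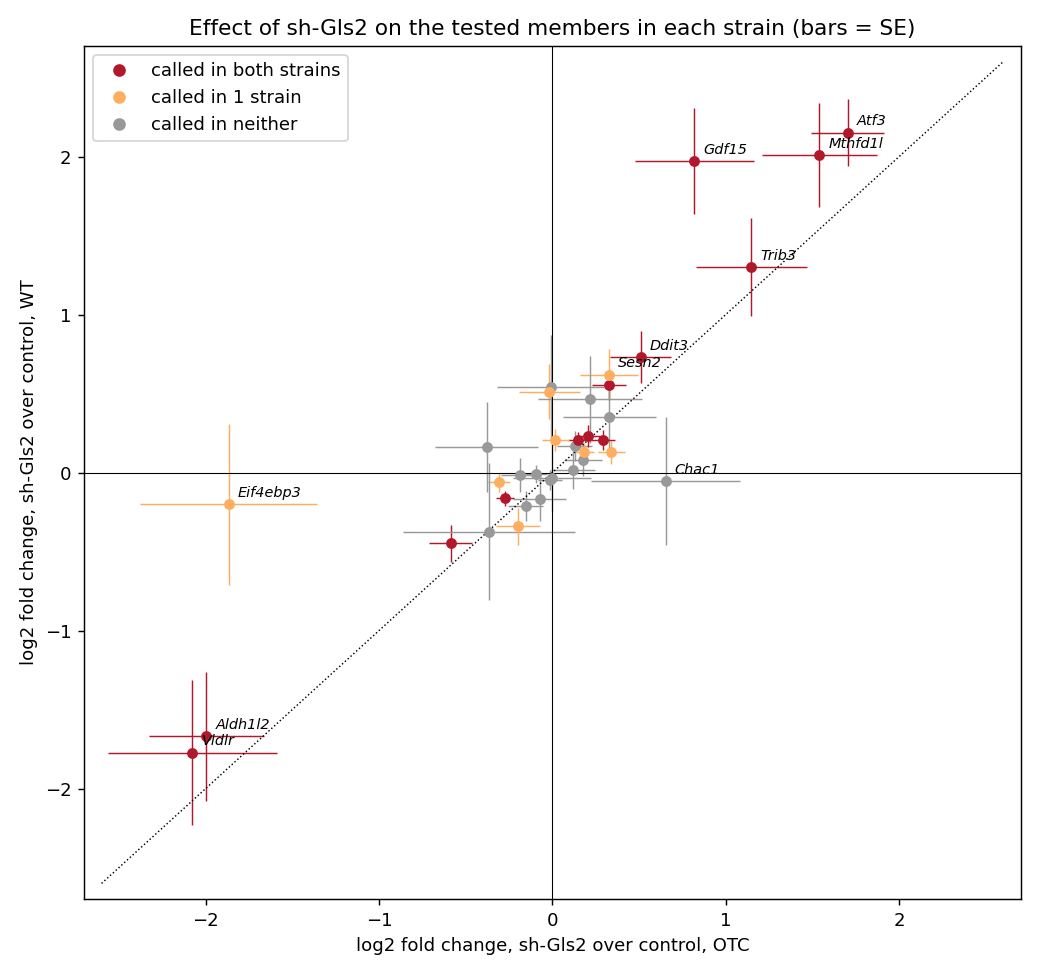
Log2 fold change of sh-Gls2 over control in OTC mice (horizontal axis) and in WT mice (vertical axis) for the 36 tested members, with SE bars and a dotted line of equal values. Atf3, Mthfd1l, Trib3 and Gdf15 sit at the upper right and Vldlr and Aldh1l2 at the lower left in both strains, while Eif4ebp3 is low in OTC mice only at -1.87, a value set by 2 control livers.

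Changes of the aminoacyl-tRNA synthetases, which charge transfer RNAs with amino acids, were small and went both ways. In OTC mice 4 of the 11 were higher under sh-Gls2 and 1 lower, and in WT mice 4 were higher and 2 lower. Of all genes, 20.2% were higher and 22.6% lower in OTC mice, and 17.6% higher and 17.2% lower in WT mice. The log2 fold changes of the 11 ran from -0.27 to 0.29 in OTC and from -0.34 to 0.23 in WT mice. Nars, for asparagine, had medians of 112 CPM in OTC sh-Gls2 and 94.1 CPM in OTC control (log2 fold change 0.29 ± 0.07), and of 130 CPM in WT sh-Gls2 and 107.5 CPM in WT control (0.20 ± 0.06). Aars, for alanine, and Gars, for glycine, were also higher in both strains, by 0.15 to 0.23, and Mars, for methionine, was lower in both, by -0.27 ± 0.05 in OTC and -0.16 ± 0.05 in WT mice. Leucine's Lars was called in OTC mice, serine's Sars higher and threonine's Tars lower in WT mice. Part of these calls rested on single libraries. Aars in OTC mice lost its call without OTC control mouse 3 (0.17, adjusted p = 0.0664 in edgeR), and Gars in OTC mice without any one of OTC control mice 38, 43 and 72 and OTC sh-Gls2 mice 4 and 21 (0.12 to 0.14, adjusted p of 0.0511 to 0.085). Tars in WT mice lost it without WT control mouse 7 or WT sh-Gls2 mouse 78 or 79 (-0.30 to -0.23, adjusted p of 0.0512 to 0.0974). Without WT control mouse 7, Lars (0.17) and Wars (0.24), for tryptophan, were called higher in WT mice.

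Eif4ebp3, which encodes an inhibitor of cap-dependent translation, was called lower in OTC sh-Gls2 livers, a call that rested on 2 control livers. OTC control mice 3 and 67 had 378 and 185 CPM, and the other 6 OTC control livers had 11.02 to 21.8 CPM, against 13.2 to 48.9 CPM in OTC sh-Gls2. The log2 fold change of -1.87 turned to 0.49 (adjusted p = 0.353 in edgeR) without the 2 livers, and was -0.82 (adjusted p = 0.15 in edgeR) without mouse 3 alone. OTC sh-Glud1 mice 58 and 65 had 124 and 208 CPM, and no WT liver had more than 18.5 CPM. A transcript annotated as AC115631.1 overlaps Eif4ebp3 on the same strand, so its reads may be shared. Eif4ebp1, the more widely expressed relative, was not called in any comparison of 2 groups with all libraries in the fit.

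Markers of other liver cells moved together with sh-Gls2. Of 10 macrophage markers, 9 were higher in OTC and 8 in WT mice, and their summed level was 172 to 288 CPM in OTC sh-Gls2 and 111 to 202 CPM in OTC control, and 151 to 235 CPM in WT sh-Gls2 and 107 to 186 CPM in WT control. Of 9 stellate cell markers, 5 were higher in OTC and 4 in WT mice, with sums of 318 to 431 CPM in OTC sh-Gls2 and 219 to 279 CPM in OTC control, and 240.0 to 410 CPM in WT sh-Gls2 and 225 to 298 CPM in WT control. Of 10 cell division genes, 9 were higher in each strain, with median log2 fold changes of 2.52 in OTC and 1.93 in WT mice and sums of 9.56 to 50.3 CPM in OTC sh-Gls2, 5.41 to 7.83 CPM in OTC control, 17.5 to 72 CPM in WT sh-Gls2 and 5.71 to 18.2 CPM in WT control. Ccnb1 and Aurkb of this list had medians under 0.1 CPM in OTC control. Of 6 endothelial markers, 5 were higher in OTC and 1 in WT mice, and of 5 hepatocyte markers 3 were lower in OTC and none was called in WT mice. Of 5 bile duct markers 1 was higher in each strain. No T cell, B cell, neutrophil or red cell marker was called. In whole liver, fewer cells of a type and less RNA per cell cannot be told apart, and the part of these cells in the members' changes was not tested.

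Under sh-Glud1 no member was called in either strain. Across all genes edgeR called 0.015% in OTC mice (2 genes, both lower) and 0.0225% in WT mice (3 genes, all lower). At an unadjusted p below 0.05 there were 3 members of 36 in OTC mice (Aars, Iars and Lars, all higher), where 639 of 13311 genes were. In WT mice there was 1 member (Trib3, higher), where 697 of 13311 genes were. DESeq2 called none of the members in either strain. For 30 of the 36 members in OTC and 28 in WT mice, the 95% interval of the fold change stayed within 2-fold of control. The wider intervals belonged to scarce or variable genes. Trib3 had medians of 10.1 CPM in OTC sh-Glud1 and 8.08 CPM in OTC control livers, and 6.12 CPM in WT sh-Glud1 and 3.16 CPM in WT control, with overlapping ranges (log2 fold change 0.16 and 0.68; 95% intervals -0.50 to 0.81 and 0.05 to 1.31). Atf3 had medians of 1.78 CPM in OTC sh-Glud1 and 1.25 CPM in OTC control livers, and 0.66 CPM in WT sh-Glud1 and 0.62 CPM in WT control.

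Compared with sh-Glud1 rather than with control, sh-Gls2 had 7 members higher and 10 lower in OTC mice (47.2%, where 40.5% of all genes were called, 19.5% higher and 21.1% lower) and 10 higher and 4 lower in WT mice (38.9%, where 29.6% were called, 15.5% higher and 14.2% lower). These comparisons use the same sh-Gls2 livers as those with control. With limma on log2(TPM + 1), 6 were higher and 5 lower in OTC mice and 9 higher and 2 lower in WT mice. Atf3, Mthfd1l, Gdf15, Ppp1r15a and Nars were higher and Aldh1l2, Atf5, Mars and Vldlr lower in both strains. Of these, 4 lost their call in 1 strain without a single library: Gdf15 in OTC mice without OTC sh-Glud1 mouse 58 or 65 (0.81 to 0.84), Nars in OTC mice without OTC sh-Glud1 mouse 23 (0.16), Aldh1l2 in WT mice without WT sh-Glud1 mouse 69 (-1.15) and Vldlr in WT mice without WT sh-Glud1 mouse 15 or 17 (-1.19 to -1.09). No WT sh-Gls2 or WT sh-Glud1 liver reached 10 counts of Aldh1l2. In OTC mice 1 of 10 sh-Gls2 and 7 of 8 sh-Glud1 livers did, so these Aldh1l2 tests are not support of their own. Log2 fold changes of Atf3 were 1.33 ± 0.21 in OTC and 2.21 ± 0.22 in WT mice, without overlap of the groups in either. The groups also did not overlap for Atf5 and Vldlr in OTC mice, both lower, and for Ddit3 and Mthfd1l in WT mice, both higher. Of all genes, 6.36% did not overlap in OTC mice (3.33% higher and 3.04% lower) and 6.18% in WT mice (3.51% higher and 2.67% lower). Psat1 was called in this comparison in OTC mice alone, with 0.26, 0.43 and 0.69 CPM in OTC sh-Gls2 and 0.28, 0.75 and 1.33 CPM in OTC sh-Glud1 (log2 fold change -0.80 ± 0.29), and the call was lost without OTC sh-Glud1 mouse 33 or 65 (-0.71 to -0.66). These are few counts, 4 to 15 per library in OTC sh-Gls2 and 5 to 23 in OTC sh-Glud1. At least 10 counts of Psat1 were reached in 5 of 10 OTC sh-Gls2 and 7 of 8 OTC sh-Glud1 livers, so it passed the filter more through the higher group. Chac1 was higher in OTC sh-Gls2 than in OTC sh-Glud1 livers, with medians of 1.78 and 0.63 CPM (log2 fold change 1.24 ± 0.45), but not without OTC sh-Gls2 mouse 24 (1.09, adjusted p = 0.0512 in edgeR). The synthetases for glutamate and proline, isoleucine and tyrosine (Eprs, Iars and Yars) were lower in OTC mice, at -0.27 to -0.16. Iars lost its call without any one of 14 of the 18 libraries (-0.17 to -0.13), Yars without OTC sh-Glud1 mouse 42 or 44 (-0.24 to -0.23) and Eprs without OTC sh-Glud1 mouse 65 (-0.14). For Atf4 the OTC log2 fold change was -0.31 and not called, with 43.3 CPM in OTC sh-Glud1 mouse 65 and 90.75 CPM or more in the other 7. Without that library it was -0.42 and called (adjusted p = 0.0147 in edgeR). In the same comparison 8 of 10 macrophage markers, 7 of 9 stellate cell markers and 9 of 10 cell division genes were higher in OTC mice, and 6, 5 and 7 in WT mice.

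Under the control vector, OTC livers differed from WT livers in 14 members that were higher and 5 that were lower. These are 52.8% of the 36, where 36.3% of all genes were called (19.9% higher and 16.4% lower), and the median log2 fold change was 0.08, against 0.02 for all genes. Higher were Aldh1l2, Atf3, Cebpg, Eif4ebp3, Gars, Gdf15, Gpt, Mthfd1l, Nupr1, Pck2, Ppp1r15a, Sars, Sesn2 and Trib3, and lower were Aars, Atf5, Nars, Shmt2 and Tars. Aldh1l2 and Nupr1 rest on few counts. Of these groups, both passed the filter mainly through the OTC livers, where they are high, so their calls are not support of their own. At least 10 counts of Nupr1 were reached in 6 of 8 OTC control and 3 of 10 WT control livers. With OTC control mice 3 and 67 left out, 8 members were called higher and 4 lower, and with limma on log2(TPM + 1) over all libraries 13 were higher and 2 lower. The shares of all genes called in these fits are not given, so the counts cannot be set against the 36.3%.

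**Figure D4:**
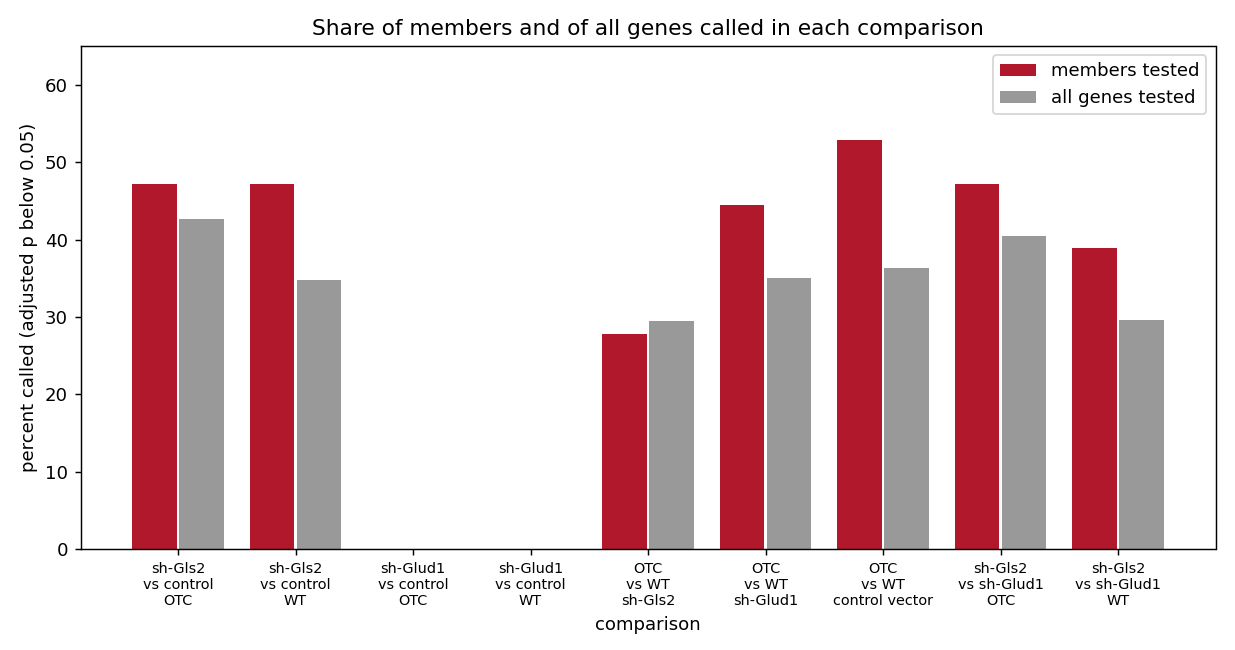
Percent of the 36 tested members (left bar of each pair) and of all 13311 genes tested (right bar) called in each of 9 comparisons. Members were called at 27.8% to 52.8% in the comparisons that involve sh-Gls2 or the strains, where 29.5% to 42.7% of all genes were, and both shares are near 0 for sh-Glud1 against control.

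Shmt2 was lower in OTC than in WT mice under each vector. OTC control livers had 81.8, 130.4 and 138 CPM and WT control livers 145, 194 and 213 CPM, without overlap (log2 fold change -0.60 ± 0.08, adjusted p = 5.97e-08 in edgeR). The log2 fold change was -0.39 ± 0.07 under sh-Gls2, with overlapping ranges, and -0.48 ± 0.08 under sh-Glud1, again without overlap. Shmt2 was the 1 member whose strains did not overlap under the control vector, where 3.41% of all genes did not (1.5% higher and 1.91% lower). Under sh-Glud1 it was again the 1 such member, where 4.88% of all genes did not overlap (2.01% higher and 2.88% lower). Tars was lower as well under each vector, with a median of 118 CPM in OTC control livers, against 178 CPM in WT control livers (-0.61 ± 0.13 under control, -0.47 ± 0.12 under sh-Gls2, -0.57 ± 0.13 under sh-Glud1).

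Atf3, Aldh1l2 and Gars were higher in OTC than in WT mice under all 3 vectors. For Atf3 the log2 fold change was 1.03 ± 0.23 under control, 0.58 ± 0.18 under sh-Gls2 and 1.46 ± 0.24 under sh-Glud1. For Aldh1l2, which rests on the few counts given above, it was 1.42 ± 0.32 under control, 1.10 ± 0.43 under sh-Gls2 and 1.48 ± 0.35 under sh-Glud1. Aldh1l2 passed the filter mainly through the OTC control and OTC sh-Glud1 livers. Its tests are therefore not support of their own for a strain difference. The sh-Gls2 value of Aldh1l2 was near the threshold (adjusted p = 0.0485 in edgeR) and was lost without any one of 11 libraries (0.77 to 1.12): OTC sh-Gls2 mice 21, 31, 49, 60 and 73 and WT sh-Gls2 mice 1, 14, 34, 36, 45 and 79. Gars also lost its sh-Gls2 call without OTC sh-Gls2 mouse 21 (0.13, adjusted p = 0.0623 in edgeR). Pck2 had 1.57, 1.83 and 2.46 CPM in OTC control livers, against 0.49, 1.22 and 1.68 CPM in WT control, so that every OTC liver was above the WT median (log2 fold change 0.73 ± 0.18).

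Other strain differences rested on few livers. Mthfd1l had 5.19 to 6.45 CPM in OTC control mice 3, 35 and 67 and at most 2.16 CPM in the other 5, against at most 3.81 CPM in WT control. Its log2 fold change of 1.01 ± 0.35 lost its call without any one of these 3 livers (0.80 to 0.89). Gpt had 443 and 418 CPM in mice 3 and 67, 209.7 to 276 CPM in the other OTC control livers and 131 to 263 CPM in WT control. Its call (0.31 ± 0.11) was lost without mouse 3, mouse 67 or WT control mouse 7 (0.17 to 0.24). Eif4ebp3 had a log2 fold change of 2.88 ± 0.53 that was 0.51 and not called (adjusted p = 0.348 in edgeR) without mice 3 and 67. For Trib3 the median was 8.08 CPM in OTC control livers, against 3.16 CPM in WT control livers (0.93 ± 0.33) and lost its call without mouse 3 (0.82, adjusted p = 0.0583 in edgeR), as did Aars (-0.18, adjusted p = 0.0589 in edgeR). For Gdf15 (0.88 ± 0.35) any one of 12 libraries was enough: OTC control mice 35, 38, 43, 46 and the unnumbered one, and WT control mice 2, 7, 10, 11, 19, 20 and 77 (0.69 to 0.88, adjusted p of 0.0564 to 0.137). Of the 10 cell division genes, 6 were lower in OTC than in WT control livers, of 9 stellate cell markers 3 were lower and 1 higher, and of 10 macrophage markers 2 were higher. Their part in these differences was not tested.

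Under sh-Glud1, 13 members were higher and 3 lower in OTC than in WT livers (44.4%, where 35% of all genes were called, 19.9% higher and 15.1% lower). Nupr1, a small stress-induced chromatin protein, had 0.52, 1.16 and 3.58 CPM in OTC sh-Glud1 and 0.20, 0.40 and 0.72 CPM in WT sh-Glud1 (log2 fold change 1.76 ± 0.34). All OTC livers were above the WT median, and the ranges overlapped. These are few counts: Nupr1 had 9 to 73 per library in OTC sh-Glud1 and 3 to 13 in WT sh-Glud1. At least 10 counts were reached in 7 of 8 OTC sh-Glud1 and 2 of 9 WT sh-Glud1 livers. Of these 2 groups, Nupr1 passed the filter on low counts mainly through the one where it is high. Chac1 went the other way, with 0.37, 0.63 and 1.71 CPM in OTC sh-Glud1 and 0.58, 1.25 and 5.72 CPM in WT sh-Glud1 (-1.47 ± 0.46). Atf4 was not called (0.29), but was without OTC sh-Glud1 mouse 65 (0.40, adjusted p = 0.0278 in edgeR). Sars, Lars and Cebpb were near the threshold and lost their calls without any one of 13, 13 and 12 of the 17 libraries. Under sh-Gls2 the strains differed in 10 members, 4 higher and 6 lower (27.8%, where 29.5% of all genes were called, 14.5% higher and 14.9% lower), and in 6 members without OTC sh-Gls2 mouse 73. Trib3 lost its call without any one of 14 of the 20 libraries (0.67 to 0.77), Nars without any one of 13 (-0.16 to -0.14) and Ddit3 without any one of 5 (-0.41 to -0.39). With limma on log2(TPM + 1), 13 were higher and 3 lower. On that scale the median of all genes in this comparison was itself shifted upward, as given in the last section. The higher calls cannot be told apart from that shift. Atf5 did not overlap between strains there, with 133 to 179 CPM in OTC sh-Gls2 and 186 to 293 CPM in WT sh-Gls2, where 2.72% of all genes did not overlap (1.01% higher and 1.71% lower). Markers of other cells also differed between the strains. Under sh-Glud1, 6 of 10 cell division genes were lower in OTC than in WT livers, with sums of 4.93 to 9.63 CPM in OTC sh-Glud1 and 10.1 to 24.5 CPM in WT sh-Glud1, and of 9 stellate cell markers 4 were lower and 1 higher, with sums of 181 to 284 CPM in OTC sh-Glud1 and 202 to 261 CPM in WT sh-Glud1. Under sh-Gls2, 5 of 10 macrophage markers were higher, with sums of 172 to 288 CPM in OTC sh-Gls2 and 151 to 235 CPM in WT sh-Gls2, and no cell division gene was called. Their part in the members' differences was not tested.

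No member's response to a hairpin differed between the strains by the test of the difference itself. For sh-Gls2, 0.338% of all genes were called (45 genes) and no member by edgeR or by DESeq2. At an unadjusted p below 0.05 there were 4 of 36 members (Cebpg, Gdf15, Eif4ebp3 and Pck2) and 1496 of 13311 genes, a like share. The smallest adjusted p was 0.229, for Cebpg (difference in log2 fold change, OTC minus WT, of -0.25 ± 0.09). For Gdf15 the difference was -1.15 ± 0.47 (adjusted p = 0.332 in edgeR). For sh-Glud1 no gene at all was called, and 1 member, Lars, had an unadjusted p below 0.05, where 417 of 13311 genes did. The members called in 1 strain alone are therefore not shown to respond differently there.

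Whether members varied together from mouse to mouse was examined by setting the level of Asns against 9 other members within each group, which gave 54 correlations. None passed an adjusted p of 0.05 by Pearson's r or Spearman's rho, and 27 of the 54 values of r were positive. The strongest by p was Atf4 with Asns in OTC sh-Gls2 livers (r = 0.759, permutation p = 0.0123, adjusted p = 0.391, rho = 0.697, permutation p = 0.031, adjusted p = 0.416, n = 10), and r was 0.643 without the 2 livers farthest in Asns. Trib3 with Asns had a negative r in OTC sh-Glud1 livers (r = -0.786, exact permutation p = 0.0234, adjusted p = 0.391, rho = -0.81, exact permutation p = 0.0218, adjusted p = 0.416, n = 8, r = -0.755 without the 2 farthest). A p that misses the threshold does not show that these genes vary independently.

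Other genes of the same pathways were counted from lists of genes outside the 39. The counts are of sh-Gls2 against control unless another comparison is named, where 20.2% of all genes were higher and 22.6% lower in OTC mice and 17.6% were higher and 17.2% lower in WT mice. Of 10 tested amino acid transporters, which ATF4 also induces, 6 were higher and 1 lower in OTC mice, and 4 were higher and none lower in WT mice. The cystine carrier Slc7a11 was called higher in OTC mice, with 7 to 55 counts per library in OTC sh-Gls2 and 0 to 4 in OTC control. No library of OTC control, OTC sh-Glud1, WT sh-Glud1 or WT control reached 10 counts of it, so it passed the filter on low counts mainly through the OTC sh-Gls2 livers, and no fold change is given. The 6 higher transporters in OTC mice include Slc7a11, whose call is not support of its own. The glycine carrier Slc6a9 had medians of 36.5 CPM in WT sh-Gls2 and 19.4 CPM in WT control (0.89 ± 0.14). Of 12 other cytosolic synthetase genes, 2 were higher and 1 lower in OTC and 3 higher and 1 lower in WT mice. Of 17 mitochondrial synthetase genes, 3 were lower in OTC and 4 in WT mice and none was higher, shares of lower genes near those of all genes. Of 21 further genes listed as ATF4 or CHOP targets, 4 were higher and 5 lower in OTC and 5 higher and 1 lower in WT mice. Sqstm1, an autophagy receptor, was higher in both strains, with medians of 449 CPM in OTC sh-Gls2 and 278 CPM in OTC control livers (0.74 ± 0.08), and 528 CPM in WT sh-Gls2 and 315 CPM in WT control (0.78 ± 0.07).

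Upstream of ATF4, among 15 genes of the eIF2 kinases and their partners, 2 were higher and 5 lower in OTC and 4 were higher and 4 lower in WT mice under sh-Gls2. Impact, which inhibits the amino acid sensing kinase GCN2, had medians of 32.9 CPM in OTC sh-Gls2 and 14.9 CPM in OTC control (1.05 ± 0.11, adjusted p = 1.26e-10 in edgeR), and 32.6 CPM in WT sh-Gls2 and 13.97 CPM in WT control (1.21 ± 0.11, adjusted p = 1.95e-13 in edgeR). Eif2b1 and Eif2b2, subunits of the exchange factor that phosphorylated eIF2 blocks, were lower in both strains, by -0.47 ± 0.07 each in OTC and -0.38 ± 0.07 and -0.39 ± 0.07 in WT mice. Of 18 chaperones and folding genes of the endoplasmic reticulum stress response, 4 were higher and none lower in OTC mice, a share of higher genes near that of all genes, and none was higher and 2 were lower in WT mice (median log2 fold changes of 0.06 and -0.19). Between the strains, 17 of those 18 were lower and none higher in OTC than in WT livers under the control vector, where 16.4% of all genes were lower. Under sh-Gls2 8 were lower and 1 higher, where 14.9% of all genes were lower, and under sh-Glud1 5 were lower and none higher, where 15.1% were. For Calr, a chaperone, the median was 442 CPM in OTC control livers, against 757 CPM in WT control livers (-0.80 ± 0.12), and its values under sh-Gls2 and sh-Glud1 were -0.54 ± 0.11 and -0.56 ± 0.13. Of 16 genes of cytosolic one-carbon metabolism, 2 were higher and 7 lower in OTC and 3 lower in WT mice under sh-Gls2, among them the cytosolic counterpart Mthfd1 (-0.43 ± 0.06 in OTC and -0.27 ± 0.06 in WT mice). Of 7 tested genes of serine and glycine breakdown, 4 were lower in OTC and 1 in WT mice. None of 7 other genes of mitochondrial one-carbon metabolism was called. Of 9 mitochondrial chaperones and proteases, 2 were higher and 1 lower in OTC and 3 higher in WT mice. Of 14 C/EBP and partner factors, 2 were higher and 2 lower in OTC and 4 higher and 1 lower in WT mice, and of 15 genes of amino acid sensing by mTORC1, 2 were higher and 3 lower in OTC and 2 higher and 2 lower in WT mice. Under sh-Glud1 no gene of any of these lists was called in either strain.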

How the data were processed

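For 55 liver libraries the authors deposited raw read counts, whole numbers with 1 row per gene symbol, and TPM values that share a common total per library. Per the submitters' processing notes, the steps included CASAVA 1.8.2, FastQC and the build GRCm38. Which aligner and counting program were used, and whether strand was used, is not given in the sources used here. Members and lists were chosen with earlier results of these data known. The members named with values were 9 well-known ones and, for each comparison, the called members with the 8 largest changes in each direction. From the other lists, genes came from those with the 3 smallest adjusted p.

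Genes passed edgeR's filterByExpr (minimum count 10, minimum total 15). Counts were scaled by TMM (factors 0.924 to 1.12), and a quasi-likelihood F test with 6 group terms was fitted in edgeR 4.0.16 (R 4.3.3) over all 55 libraries, two-sided, with Benjamini-Hochberg adjustment over 13311 genes. The SE is the log2 fold change divided by the square root of F, and 95% intervals follow from it. CPM are TMM-scaled. Correlations used log2 CPM with permutation tests, exact for groups under 10. On simulated counts of sh-Gls2 against control in WT mice over the 13311 genes, 76% of 1.5-fold and 92% of 2-fold changes were recovered, with 6 false calls of 174. Only 200 genes were changed there, where the real comparison called 34.8% of genes. Livers that stand apart were not imitated, and recovery was averaged over all changed genes, so it need not hold for scarce members. No library pair looked like a repeat of another (smallest chi-square per degree of freedom 10.5). For 1 OTC control library the mouse number in the tables differs from the sample titles; it is called unnumbered. Alternatives were DESeq2 1.42.0, its size factors, other filters, the compared groups alone, limma 3.58.1 on log2(TPM + 1) and log2(TPM + 0.1), and each library left out. PCR reads without molecular identifiers are not independent molecules, so the spread between mice serves as the error. No label names a batch.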

Additional observations from a re-analysis of the deposited data

Results flagged for a closer look

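Livers that stood apart within their group by Dixon's test were found in 27 of the 216 sets of 1 member in 1 group, where chance alone would give about 10.8 (1 in 20). Sets within a mouse share a library.

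The WT control library of mouse 7 accounted for 10 of them. It was the highest of its group for Psat1 (1.44 CPM), Psph (7.14), Mthfd2 (4.07), Nars (158), Wars (31.4), Iars (68.2), Tars (312) and Yars (43.3), and the lowest for Gpt (131) and Shmt2 (145). These 8 genes in which it was high act in serine or one-carbon metabolism or are synthetases. The results that change without it are given beside those genes.

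OTC control mouse 3 was the highest for Eif4ebp3 (378 CPM) and Chac1 (4.16) and the lowest for Shmt2 (81.8), and OTC control mouse 67 was the lowest for Sars (37.1). WT control mouse 13 was the highest for Vldlr (16.6).

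Of the sh-Gls2 libraries, OTC mouse 21 was the highest for Atf3 (7.46 CPM) and Mthfd1l (16.5), OTC mouse 4 for Sesn2 (13.0), WT mouse 14 for Atf4 (118), WT mouse 1 for Gars (52.5) and WT mouse 79 for Chac1 (4.56), while WT mouse 79 was the lowest for Mars (45.6). Of the sh-Glud1 libraries, OTC mouse 65 was the lowest for Atf4 (43.3 CPM), OTC mouse 58 the highest for Chac1 (1.71), WT mouse 70 for Eif4ebp1 (32.5) and Asns (5.51), and WT mouse 15 for Mthfd1l (3.32).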

How the results depend on the processing

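Of 110 calls of a member in a comparison, 70 were kept in all alternatives run for them, and of the 3087 alternative values for the 110, 2813 kept the call, 272 lost it in the same direction and 2 turned. Of 286 pairs of a member and a comparison that were not called, 41 were called under at least 1 alternative, 2 of them in the other direction (Eprs and Cebpb, below). The count of members called in OTC against WT mice under the control vector was 19, and fell to 12 without OTC control mice 3 and 67 and to 11 without WT control mouse 13 as well. OTC against WT under sh-Gls2 had 10, and 16 with limma on log2(TPM + 1). sh-Gls2 against sh-Glud1 in OTC mice had 17, and 11 with limma on either TPM scale, where 31 members were tested. Leaving out 1 library at a time gave 15 to 19 for OTC against WT under control, 6 to 11 under sh-Gls2 (6 without OTC sh-Gls2 mouse 73) and 13 to 16 under sh-Glud1. It gave 15 to 18 for sh-Gls2 against control in OTC mice and 16 to 19 in WT mice, 14 to 19 for sh-Gls2 against sh-Glud1 in OTC mice and 11 to 15 in WT mice, and 0 for sh-Glud1 against control and for both strain differences.

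Eprs in OTC against WT under sh-Gls2 turned to 0.136 and 0.139 on the TPM scales, both called (adjusted p = 0.0364 in limma). Without OTC control mice 3 and 67, sh-Gls2 against control in OTC mice turned to 0.486 for Eif4ebp3 and 0.552 for Cebpb (0.491 and 0.557 without WT control mouse 13 as well). The Cebpb values were called (adjusted p of 0.0294 and 0.03 in edgeR), from a value near 0. On the log2(TPM + 1) scale the median of all genes in OTC against WT under sh-Gls2 was 0.12. The causes were not tested. No paired analysis was possible because each mouse number belongs to 1 mouse and the groups share none. Depth limits Phgdh, Pycr1 and Stc2, and members near 1 CPM have wide intervals.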
